A study of Mus musculus with 6 samples.

Results

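Interferon-stimulated genes are genes that cells switch on in response to interferons. The 38 genes described here were chosen by name as genes induced by type I or type II interferon, and all 38 were found among the 21899 genes of the count table. All 38 also passed the filter on low counts, which 14956 genes passed, so every one was tested. Their levels were compared between the irradiated thalamus of mice given a control virus and that of mice given a NeuroD1 virus.

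Thalamus was sequenced in bulk from 3 mice of the RC group (radiation and control virus) and 3 of the RN group (radiation and NeuroD1 virus). All were wild-type male C57BL/6J mice, 8 to 10 weeks old at the start. They had received 50 Gy to the left thalamic region and 2 µL of virus 2 weeks later, and tissue was taken 6 weeks after irradiation. RC mice received AAV9 GFAP104::tdTomato, which carries a red fluorescent protein, and RN mice received AAV9 GFAP104::mND1-tdTomato, which adds mouse NeuroD1, a transcription factor of neuronal differentiation. GFAP104 is a promoter active in astrocytes, so the virus acted on part of the tissue while RNA came from all of it. Both groups were irradiated and both received AAV9 with tdTomato, so by design they differed in the added NeuroD1 and not in radiation or AAV itself. Markers of the choroid plexus and hypothalamus also differed between the groups (values below), and their part in the comparison was not tested. Unirradiated mice were not analysed here. Bulk RNA cannot separate fewer cells of a type from less RNA per cell.

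Interferons are secreted proteins that signal to neighbouring cells that a virus or damaged nucleic acid is present. Type I interferons bind the receptor made by Ifnar1 and Ifnar2 and act through a complex that includes STAT2 and IRF9 and binds a DNA element called ISRE. Type II interferon (Ifng), made mainly by T cells and natural killer cells, binds Ifngr1 and Ifngr2 and acts on an element called GAS. In the brain microglia, astrocytes, endothelium and neurons can all respond, and the genes switched on include sensors of foreign RNA and DNA, transcription factors that extend the response, and proteins that block viral growth.

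Both elements were looked for in the RefSeq promoter windows of assembly GRCm38.p6, which hold the 300 bases from 250 before to 50 after a gene's start. By symbol 30 of the 38 genes had a window. The ISRE core was searched as GAAANNGAAA on both strands and the GAS core as TTCNNNGAA, which reads alike on both strands, and where a gene had several windows a match in any counted. The ISRE core was present in 16 of the 30 genes (53.3%), beside 3.99% of the 27025 genes with a window. The GAS core was present in 8 of the 30 (26.7%), beside 9.55% of all. A match is a description of letters and was not tested for binding. The 150 bases before the start are shown for 6 genes on the strand of each gene, 5′ to 3′, with matches to either core in capitals. Igtp, Irgm1 and Gbp7 are the genes in which 1 control mouse stood farthest from the rest. Oas3 and Rsad2 were higher in every RN mouse, and Isg15 is named after the class.
Igtp (chr11:58199406-58199555, plus strand): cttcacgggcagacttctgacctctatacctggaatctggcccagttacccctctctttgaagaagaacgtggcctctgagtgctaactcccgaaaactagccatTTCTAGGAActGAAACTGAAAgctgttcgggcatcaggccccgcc
Irgm1 (chr11:48871421-48871570, minus strand): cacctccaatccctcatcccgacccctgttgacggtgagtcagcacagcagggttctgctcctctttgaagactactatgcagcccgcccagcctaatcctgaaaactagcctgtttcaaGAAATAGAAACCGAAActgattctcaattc
Gbp7 (chr3:142530186-142530335, plus strand): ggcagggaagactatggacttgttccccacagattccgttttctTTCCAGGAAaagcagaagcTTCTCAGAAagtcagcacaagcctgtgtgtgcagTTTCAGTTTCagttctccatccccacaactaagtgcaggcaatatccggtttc
Oas3 (chr5:120777660-120777809, minus strand): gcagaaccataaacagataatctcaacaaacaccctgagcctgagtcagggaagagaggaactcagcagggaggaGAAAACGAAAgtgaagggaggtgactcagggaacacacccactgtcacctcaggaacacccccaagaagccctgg
Rsad2 (chr12:26456453-26456602, minus strand): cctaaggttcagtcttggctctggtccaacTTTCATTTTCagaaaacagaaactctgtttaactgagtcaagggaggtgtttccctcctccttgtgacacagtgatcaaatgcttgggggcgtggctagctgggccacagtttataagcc
Isg15 (chr4:156200819-156200968, minus strand): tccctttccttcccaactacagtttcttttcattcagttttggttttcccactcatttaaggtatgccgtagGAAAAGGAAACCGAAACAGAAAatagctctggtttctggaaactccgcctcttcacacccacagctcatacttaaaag
Irgm1, Oas3, Rsad2 and Isg15 held the ISRE core alone in their windows, whereas Igtp and Gbp7 also held the GAS core. All 4 GTPase genes (Gbp3, Gbp7, Irgm1 and Igtp) held an ISRE core. The windows of Oasl1 and Irf7 held neither core, although both genes were among those with the smallest p described next.

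The libraries held between 16561663 and 18657015 reads counted on genes. Levels are given in CPM, counts per 1000000 of the TMM-scaled library, and a count of 0 would allow up to 0.179 CPM (3 counts, covering counting error only). Neurod1, the gene carried by the RN virus, checked the labels, with 4.71, 5.44 and 5.16 CPM in RC replicates 1, 2 and 3 and 66.8, 91.5 and 50.9 CPM in RN replicates 1, 2 and 3. Markers of tissue other than the thalamus differed between the groups. Those of the choroid plexus, a structure that lies beside the thalamus, summed to 2692, 8244 and 309.7 CPM in RC and to 52.6, 90.3 and 131.2 CPM in RN. All 7 of them had an unadjusted edgeR p under 0.05, lower in RN, beside 6.33% of all tested genes. Hypothalamic markers summed to 226.6, 131.1 and 37.5 CPM in RC and to 469.8, 399.2 and 303.1 CPM in RN. All 9 that were tested had a fitted change upward in RN. Of these, 6 had an unadjusted edgeR p under 0.05, beside 5.44% of all tested genes. Whether the dissection differed between the groups was not tested. Thalamic markers, whose presence checks the labelled tissue, summed to between 823.8 and 1734 CPM in RC and between 604.3 and 1166 CPM in RN. All 8 of them had a fitted change downward in RN, with a median log2 fold change of -0.54. Of these, 1 had an unadjusted edgeR p under 0.05, beside 6.33% of all tested genes, and in all 8 the groups overlapped.

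RC replicate 1 stood apart from the other mice in these genes. It had the highest level of all 6 mice in 20 of the 38 genes and the lowest in 0, where it was highest in 13.6% of all tested genes. It reached at least 1.5 times the median of the other mice in 16 of the 38 genes, which it did in 6.15% of all tested genes. RC replicates 2 and 3 were lowest in 14 and 15 genes, and RN replicates 3 and 2 were highest in 12 and 5. The summed level of the 38 genes was 1510 CPM in RC replicate 1, 920.0 and 809.0 CPM in RC replicates 2 and 3, and 996.1, 1299 and 1238 CPM in RN replicates 1, 2 and 3. The mouse was singled out after its values were seen, and comparisons are therefore given with and without it.

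**Figure D1:**
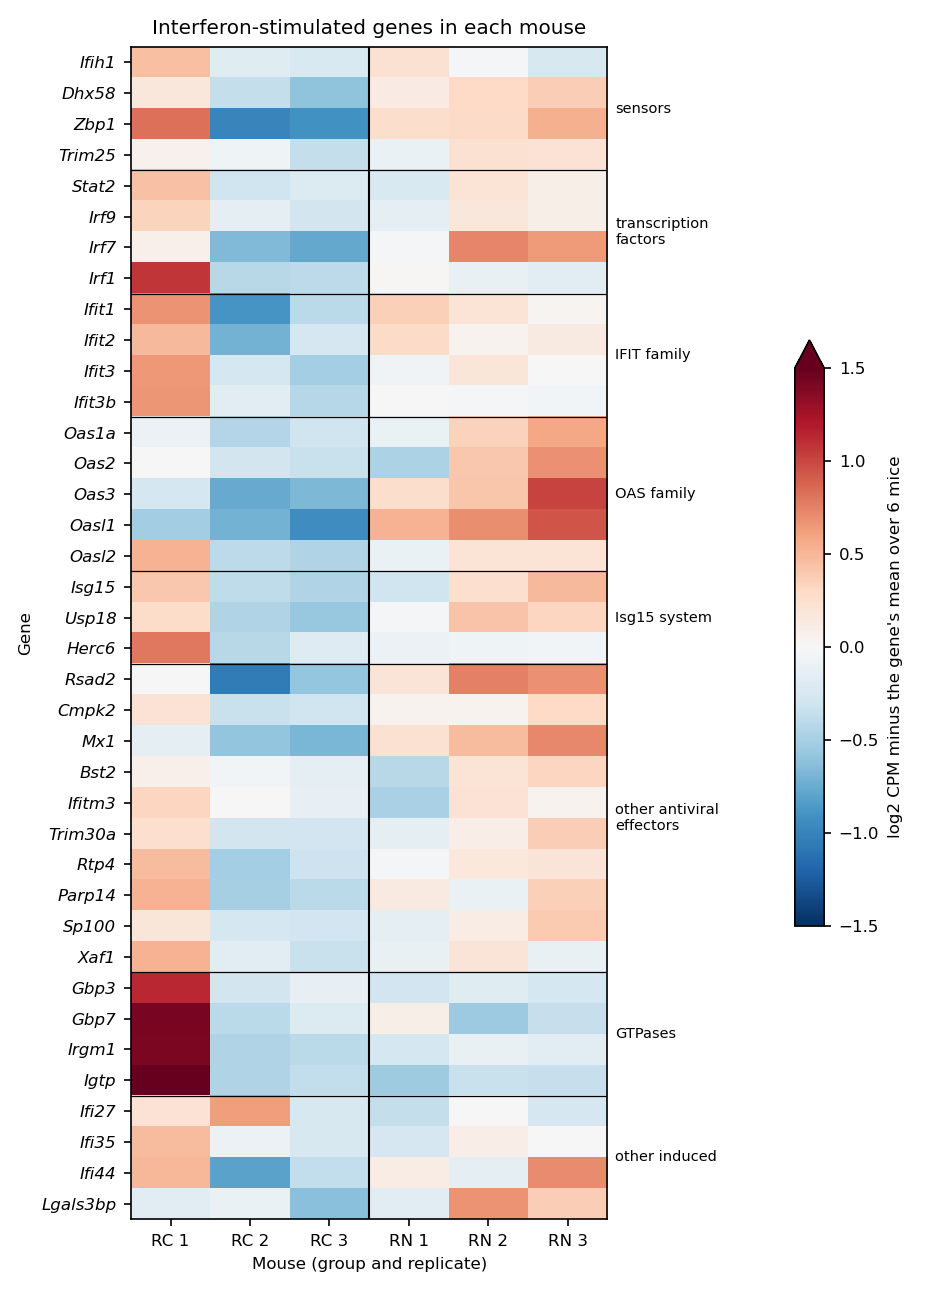
Level of each of the 38 genes in each mouse, as log2 CPM minus the gene's mean over the 6 mice, with genes grouped by role and a vertical line between RC and RN. RC replicate 1 is red in most rows and darkest in the 4 GTPases, RC replicates 2 and 3 are mostly blue, and the 4 genes Oasl1, Oas3, Rsad2 and Mx1 are lower in every RC mouse than in any RN mouse.

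The question of the comparison was whether these genes differed between RN and RC. Oasl1, Oas3, Rsad2 and Mx1, antiviral genes of low abundance, had higher levels in every RN mouse than in any RC mouse. Their log2 fold changes were 0.94 to 1.44. At 4 of the 38 genes, this separation was about as common as among all tested genes (8.18%). The GTPases Igtp, Irgm1, Gbp3 and Gbp7 were high in RC replicate 1 and at similar levels in the other 5 mice. Most of the remaining genes were highest in RC replicate 1 or an RN mouse and lowest in RC replicates 2 and 3. With all 6 mice, 25 of the 38 genes had a fitted change upward in RN and 13 downward, beside 7601 and 7355 of the 14956 tested genes. Calls required a change of at least 2-fold and an adjusted p under 0.05 in edgeR's quasi-likelihood test, and 0 of the 38 met both in either direction, beside 0.0602% of tested genes called higher and 0.0134% called lower. At an unadjusted p under 0.05, 7 genes were higher in RN (Oasl1, Oas3, Rsad2, Mx1, Irf7, Oas1a and Lgals3bp) and 0 were lower, beside 5.44% of tested genes higher and 6.33% lower. DESeq2, the tool the study used, called 3 of the 38 higher with the same thresholds, Oasl1, Oas3 and Rsad2, beside 0.61% of the genes it tested. The levels of RN lay above those of RC in every mouse for 4 of the 38 genes, beside 8.18% of tested genes, and below in 0, beside 8.12%. The median log2 fold change of the 38 genes was 0.20, against 0.0037 over all tested genes. It was 0.0035 without RC replicate 2, 0.080 without RC replicate 3 and 0.095 without RN replicate 3, so it rested on single mice.

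Without RC replicate 1, 36 of the 38 genes had a fitted change upward and 2 downward, Gbp3 and Ifi27, beside 7561 and 7395 of the 14956 tested genes. The median log2 fold change of the 38 genes was 0.44. At an unadjusted p under 0.05, 20 were then higher, beside 6.69% of tested genes, and 0 lower, beside 6.84%. The smallest adjusted p of the 38 was 0.0752 (edgeR, Zbp1), so 0 were called. Every RN mouse lay above both RC replicates 2 and 3 in 25 of the 38 genes, beside 15.4% of tested genes. RC replicate 1 was left out because it was high in these genes, which by itself shifts these counts upward. It was highest in only 13.6% of all tested genes, so their shares are not a like comparison here. RC replicate 1 itself lay above all RN mice in 21 genes, among them in 13 and below them in 4. The SD between RC mice had a median of 33.6% of the mean over the 38 genes, and that between RN mice 13.99%, beside 12.4% and 10.7% over all tested genes.

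**Figure D2:**
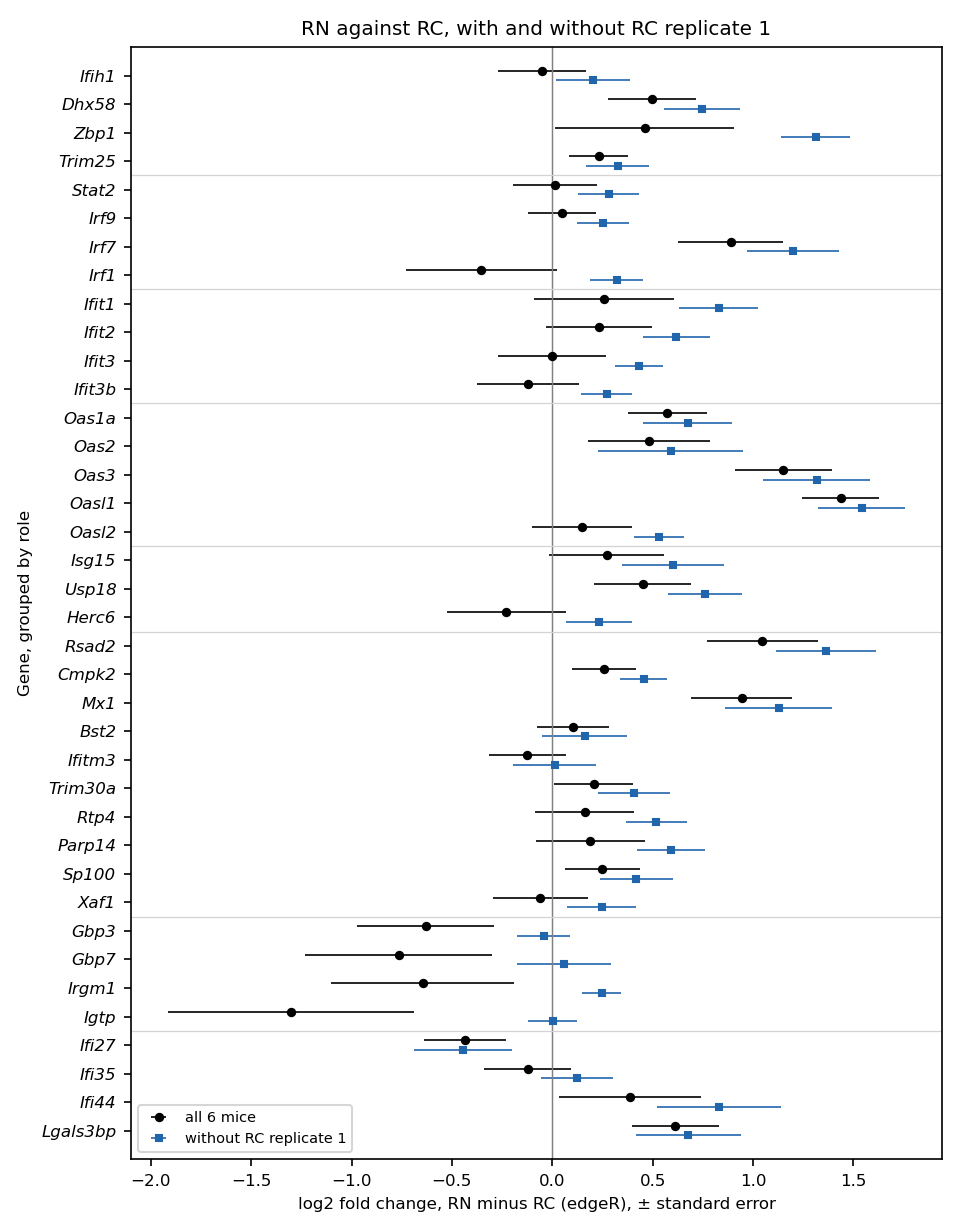
Fitted log2 fold change of each gene (RN minus RC, edgeR) with its standard error, from all 6 mice (black circles) and without RC replicate 1 (blue squares), grouped by role. The 4 GTPases lie below 0 with wide errors in the first fit and between -0.04 and 0.25 in the second, while Oasl1, Oas3, Rsad2, Mx1 and Irf7 lie well above 0 in both.

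Oasl1 and Oas3 of the OAS family had the largest upward changes of the 38 genes in the fit of all 6 mice. The catalytic members of this family, which do not include Oasl1, sense double-stranded RNA and make a small messenger that switches on an RNA-degrading nuclease. Oasl1, a family member known to restrain the translation of Irf7 mRNA, had 4.49, 3.94 and 3.38 CPM in the RC mice and 9.22, 10.4 and 12.4 CPM in the RN mice. Its groups did not overlap, and the gap between them was wider than the spread within either. The log2 fold change was 1.44 ± 0.19 (SE, n = 3 against 3), with an edgeR adjusted p of 0.063 and a DESeq2 adjusted p of 2.99e-06. Oas3, which makes the messenger in response to long RNA, had 6.90, 4.90 and 5.21 CPM in RC against 9.99, 11.1 and 16.7 CPM in RN. Every RN mouse again lay above every RC mouse, and RN replicate 3 was well above the other RN mice. Its log2 fold change was 1.15 ± 0.24 (edgeR adjusted p = 0.124, DESeq2 adjusted p = 0.0023).

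Oas1a, a catalytic member, had 14.2, 11.1 and 12.2 CPM in the RC mice and 14.04, 19.1 and 22.5 CPM in the RN mice. RN replicates 2 and 3 lay above all RC mice, but RN replicate 1 fell within their range (log2 fold change 0.57 ± 0.20, edgeR adjusted p = 0.288). Oas2 had 4.54, 3.76 and 3.61 CPM in RC against 3.27, 6.04 and 7.33 CPM in RN, with RN replicate 1 the lowest of all mice. Oasl2, which was the most abundant of the family in CPM, had 67.4, 35.9 and 34.5 CPM in the RC mice and 44.0, 54.3 and 54.3 CPM in the RN mice, with RC replicate 1 above every RN mouse. All 5 genes of the family had fitted changes upward, and their median log2 fold change was 0.57 with all mice and 0.68 without RC replicate 1. Oas1a shares much of its sequence with Oas1g and other copies, and how reads common to them were divided is not known.

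Of 10 other antiviral effectors, Rsad2 and Mx1 were higher in every RN mouse. Rsad2 encodes viperin, an enzyme that makes a chain-terminating nucleotide. It had 10.0, 4.84 and 6.70 CPM in RC against 11.5, 17.003 and 16.2 CPM in RN, so RN replicate 1 lay only a little above RC replicate 1. Its log2 fold change was 1.05 ± 0.28 (edgeR adjusted p = 0.184, DESeq2 adjusted p = 0.0138). Mx1, a dynamin-like antiviral GTPase whose gene is defective in C57BL/6J mice, had 3.25, 2.39 and 2.23 CPM in the RC mice and 4.22, 5.03 and 5.93 CPM in the RN mice. The groups did not overlap, at levels among the lowest of the 38 genes (log2 fold change 0.94 ± 0.25, edgeR adjusted p = 0.188). Cmpk2, a mitochondrial nucleotide kinase that lies beside Rsad2, had 44.1, 30.2 and 31.0 CPM in RC against 39.5, 39.6 and 46.9 CPM in RN, with RC replicate 1 among the RN mice.

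The other 7 effectors had log2 fold changes between -0.12 and 0.25 with all mice. Ifitm3, a membrane protein that blocks viral entry, had 45.7, 36.8 and 33.6 CPM in the RC mice and 26.1, 42.5 and 37.9 CPM in the RN mice. Bst2 (tetherin), which holds budding virus at the cell surface, had 40.8, 37.6 and 35.0 CPM in RC against 29.1, 44.5 and 48.2 CPM in RN. In both genes RN replicate 1 was the lowest of the 6 mice, and the groups overlapped widely. Parp14, an ADP-ribosyltransferase, had 31.7, 15.6 and 16.7 CPM in the RC mice and 24.2, 20.6 and 28.2 CPM in the RN mice. Rtp4, a chaperone of membrane receptors, had 21.7, 10.996 and 12.6 CPM in RC against 15.5, 17.5 and 17.8 CPM in RN. In these 2 genes RC replicate 1 was the highest mouse and RC replicates 2 and 3 were the lowest. Trim30a, Sp100 and Xaf1 had levels of 14.3 to 22.5 CPM, 15.5 to 25.0 CPM and 9.57 to 17.4 CPM over the 6 mice.

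Among the transcription factors, Irf7, which drives the amplifying wave of type I interferon production, had 41.7, 25.1 and 23.2 CPM in the RC mice and 39.1, 65.8 and 61.7 CPM in the RN mice. RN replicates 2 and 3 stood above all RC mice, and RN replicate 1 lay just under RC replicate 1. The log2 fold change was 0.89 ± 0.26 (edgeR adjusted p = 0.217, DESeq2 adjusted p = 0.0167, under 2-fold in both) and 1.201 ± 0.23 without RC replicate 1 (edgeR adjusted p = 0.132). Stat2 and Irf9, parts of the complex that binds the ISRE, had 26.5 to 44.3 CPM and 30.3 to 46.2 CPM over the 6 mice, with RC replicate 1 highest in each. Irf1, a factor strongly induced by type II interferon, had 43.2, 15.4 and 15.6 CPM in RC against 20.8, 19.03 and 18.3 CPM in RN. RC replicate 1 lay at 2.36 times the median of the other mice, whereas every RN mouse lay above RC replicates 2 and 3. Its log2 fold change was -0.35 ± 0.38 with all mice and 0.32 ± 0.13 without RC replicate 1, so the direction rested on that mouse (edgeR adjusted p = 0.801 and 0.363).

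Among the sensors, Zbp1, a receptor of Z-form nucleic acid that can start inflammatory cell death, had 19.1, 5.44 and 5.73 CPM in the RC mice and 12.9, 13.2 and 15.5 CPM in the RN mice. RC replicate 1 was above the RN mice and the other RC mice were far below them. Its log2 fold change was 0.46 ± 0.45 with all mice and 1.31 ± 0.17 without RC replicate 1. Dhx58, a helicase that tunes RNA sensing, had 8.86, 6.16 and 5.21 CPM in RC against 8.63, 9.73 and 10.2 CPM in RN, so only RN replicate 1 fell under RC replicate 1. Ifih1, a sensor of long double-stranded RNA, and Trim25, a ubiquitin ligase of the RNA-sensing pathway, had 10.6 to 17.1 CPM and 21.3 to 31.9 CPM over the 6 mice, with overlapping groups.

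**Figure D3:**
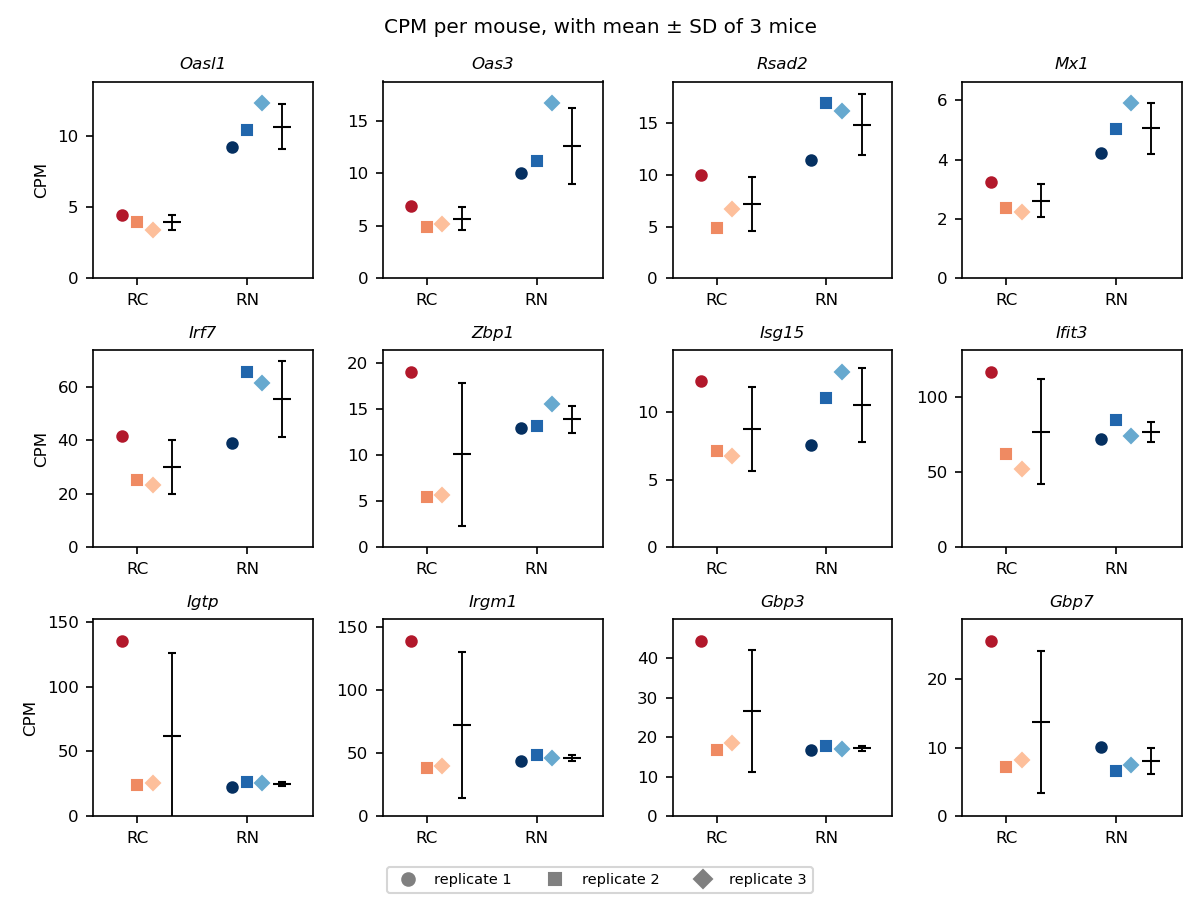
Level in CPM of 12 of the 38 genes in each mouse, on linear axes that start at 0, with replicates 1, 2 and 3 as circles, squares and diamonds and the mean ± SD of 3 mice beside each group (the lower bar of Igtp in RC is cut at 0). In the top row RN lies above RC in every mouse, and in the bottom row the red circle of RC replicate 1 lies far above 5 mice that stand together.

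The 4 IFIT genes encode proteins that bind foreign RNA and block its translation. Ifit1 had 25.3, 8.61 and 11.97 CPM in the RC mice and 20.3, 18.2 and 16.3 CPM in the RN mice. Ifit2 had 41.7, 18.3 and 25.1 CPM in RC against 36.5, 30.9 and 32.7 CPM in RN. Ifit3 had 116.8, 61.8 and 52.1 CPM in the RC mice and 71.9, 84.3 and 74.2 CPM in the RN mice. In all 4 genes RC replicate 1 was the highest mouse and every RN mouse lay above RC replicates 2 and 3, Ifit3b included, whose levels were 42.6, 23.96 and 20.05 CPM in RC against 27.0, 26.4 and 26.3 CPM in RN. The median log2 fold change of the family was 0.12 with all mice and 0.52 without RC replicate 1. Ifit3 and Ifit3b are near-identical copies, and how reads common to both were divided is not known.

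Isg15 encodes a ubiquitin-like protein that is attached to other proteins, Herc6 is the ligase that attaches it in mice and Usp18 removes it and restrains the receptor. Isg15 had 12.3, 7.11 and 6.76 CPM in the RC mice and 7.55, 11.01 and 12.97 CPM in the RN mice. Usp18 had 15.7, 9.50 and 8.76 CPM in RC against 12.8, 17.4 and 16.2 CPM in RN. In both, RC replicate 1 fell among the RN mice and RC replicates 2 and 3 fell below them. Herc6 had 17.7, 7.65 and 8.94 CPM in the RC mice and 9.58, 9.78 and 9.90 CPM in the RN mice, close together in RN and with RC replicate 1 far above all others.

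The interferon-inducible GTPases, which attack the membranes around pathogens inside cells and respond strongly to type II interferon, were high in RC replicate 1 alone. Igtp had 135.4, 24.3 and 25.7 CPM in RC against 23.0, 26.2 and 26.0 CPM in RN. RC replicate 1 lay at 5.26 times the median of the other mice, and those 5 mice lay within a narrow range. Irgm1, a regulator of the other GTPases, had 138.9, 38.4 and 39.5 CPM in the RC mice and 43.6, 48.5 and 46.5 CPM in the RN mice. Gbp3 had 44.4, 16.7 and 18.6 CPM in RC against 16.7, 17.9 and 16.9 CPM in RN. Gbp7 had 25.5, 7.17 and 8.25 CPM in the RC mice and 10.1, 6.52 and 7.49 CPM in the RN mice. In both guanylate-binding protein genes RC replicate 1 lay at least 2-fold above every other mouse.

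Summed over the 4 GTPases, RC replicate 1 had 344.2 CPM, RC replicates 2 and 3 had 86.6 and 92.1 CPM, and RN had 93.3, 99.2 and 96.9 CPM. All 4 genes had fitted changes downward with all mice, with a median log2 fold change of -0.71 and edgeR adjusted p-values of 0.468 to 0.674. The SD of Igtp in RC, 63.7 CPM, was larger than its RC mean of 61.8 CPM, so the difference did not exceed the spread between replicates. Without RC replicate 1 the median log2 fold change of the 4 genes was 0.03. For Igtp it was 0.0016 ± 0.12 and for Irgm1 0.25 ± 0.097 (edgeR adjusted p = 0.997 and 0.342).

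The remaining 4 genes did not share a pattern. Lgals3bp, a secreted glycoprotein that binds galectins, had 199.1, 206.5 and 143.9 CPM in RC against 198.6, 355.0 and 287.1 CPM in RN, with RN replicate 1 under 2 of the RC mice (log2 fold change 0.61 ± 0.22, edgeR adjusted p = 0.305). Ifi27 had 67.1, 88.5 and 48.6 CPM in the RC mice and 45.0, 57.7 and 48.4 CPM in the RN mice. It was the gene of the 38 in which RC replicate 2 was highest and the one with a log2 fold change near -0.4 in both fits, -0.43 ± 0.20 with all mice and -0.44 ± 0.25 without RC replicate 1 (edgeR adjusted p = 0.469 and 0.487). With a choroid plexus score as a covariate, which itself differed between the groups, the log2 fold change of Ifi27 was 0.30. Ifi44 had 10.1, 4.12 and 5.56 CPM in RC against 7.73, 6.47 and 11.7 CPM in RN. Ifi35 had 8.57 to 14.1 CPM over the 6 mice. Compared per kilobase of exon, the highest of the 38 genes were Lgals3bp, at 64.3 CPM per kb in RC and 98.4 in RN, and Ifitm3, at 57.1 in RC and 52.3 in RN, and the lowest was Mx1, at 0.694 in RC and 1.34 in RN.

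The transcripts of interferons themselves were close to absent at this depth. None of 11 ligand genes passed the filter, and 8 of them, Ifnb1 and the 4 Ifna genes among them, had 0 counts in all 6 mice. Ifng had 5, 2 and 0 counts in RC replicates 1, 2 and 3 and 2, 3 and 1 counts in RN, so a difference was not detectable at this depth. Of 6 receptor genes, 1 was higher in RN at an unadjusted edgeR p under 0.05, beside 5.44% of all tested genes (Ifngr2, log2 fold change 0.21, edgeR adjusted p = 0.374).

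Of 18 genes that sense nucleic acid upstream of interferon, 2 had an unadjusted p under 0.05 higher in RN and 1 lower, beside 5.44% and 6.33% of all tested genes. Every RN mouse lay above every RC mouse in 3 of the 18 genes and below in 1, beside 8.18% and 8.12% of all tested genes. Irf8, a factor of microglia and other myeloid cells, was among the 3, with 34.3, 29.7 and 28.3 CPM in RC against 36.3, 39.8 and 40.5 CPM in RN (log2 fold change 0.34, edgeR adjusted p = 0.257). Adar, which edits double-stranded RNA, had a log2 fold change of 0.21 (edgeR adjusted p = 0.339), and Tlr3, an endosomal RNA receptor, one of -0.36 (edgeR adjusted p = 0.389). Of 6 inhibitors of the pathway, such as Socs1, 0 passed in either direction. The adjusted threshold was passed by 0 genes of these lists.

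A further 59 tested interferon-induced genes, listed apart from the 38, were split 30 upward and 29 downward, with a median log2 fold change of 0.03 and with 3 higher and 3 lower at an unadjusted p under 0.05, beside 5.44% and 6.33% of all tested genes, so neither share was above that of all genes. The 3 higher were Ifi207, Ifi204 and Oas1g, of which Ifi207 and Ifi204 belong to the DNA-binding PYHIN family. Ifi207 had 249, 188 and 223 counts in the RC mice and 289, 351 and 365 counts in the RN mice (log2 fold change 0.57, edgeR adjusted p = 0.158, DESeq2 adjusted p = 0.042). The 3 lower, named after their values were seen, were Tgtp1, Gbp4 and Cxcl9, which are GTPases and a T cell-attracting chemokine induced by type II interferon. Cxcl9 had 472, 55 and 60 counts in RC against 47, 63 and 50 counts in RN, and its log2 fold change of -1.89 was -0.17 without RC replicate 1. Tgtp1 had 432, 196 and 97 counts in the RC mice and 65, 94 and 119 in the RN mice, with a log2 fold change of -1.41 that was -0.73 without RC replicate 1. DESeq2 called it lower (adjusted p = 0.0395), beside 0.536% of the genes DESeq2 tested, whereas edgeR did not (adjusted p = 0.288). Gbp4 had 646, 87 and 131 counts in RC against 87, 75 and 84 in RN, and in CPM every RN mouse lay below every RC mouse, RN replicate 1 only just (5.18 against 5.20 CPM in RC replicate 2). Its log2 fold change of -1.82 was -0.46 without RC replicate 1. RC replicate 1 was the highest mouse in 35 of the 59 genes, beside 13.6% of all tested genes, and at least 2 times the median of the others in 21, beside 2.23%. Without it, 51 of the 59 were upward, and 15 had an unadjusted p under 0.05 in that direction, beside 6.69%. Leaving out a mouse that was high in these genes by itself shifts such counts upward.

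Markers of T cells were also highest in RC replicate 1, in 6 of the 7 that were tested, beside 13.6% of all tested genes. Their summed level was 33.8, 19.004 and 18.96 CPM in the RC mice and 12.1, 19.9 and 25.3 CPM in the RN mice. Of the 3 most abundant, Trac had 83, 76 and 59 counts in RC against 37, 62 and 45 in RN, Trbc2 had 100, 43 and 56 in the RC mice and 49, 39 and 42 in the RN mice, and Cd4, which microglia can also express, had 62, 91 and 101 in RC against 47, 136 and 244 in RN. Cd8a, named after its values were seen, had 125, 38 and 36 counts in the RC mice and 20, 31 and 40 counts in the RN mice. Natural killer cell markers summed to 5.44 CPM in RC replicate 1 and to 1.37 to 3.53 CPM in the other mice. Microglial markers summed to 1318, 1388 and 1271 CPM in RC against 1087, 1504 and 1509 CPM in RN, so RC replicate 1 was not apart in them. Of 6 markers of perivascular and infiltrating macrophages, RC replicate 1 was at least 2 times the median of the other mice in 3, beside 2.23% of all tested genes. These were Cd163, Ccr2 and Ly6c2, named after their values were seen. The summed level of all 6 was 96.0 CPM in that mouse and 69.8 to 108.1 CPM in the others. Markers of several other cell types moved with the groups. Astrocyte markers summed to 5661, 7330 and 6110 CPM in RC against 3890, 5015 and 5014 CPM in RN. Of these, 4 of 7 were lower in RN at an unadjusted edgeR p under 0.05, beside 6.33% of all tested genes. Endothelial markers summed to 481.1, 440.6 and 457.6 CPM in RC against 310.9, 404.8 and 368.3 CPM in RN, with 3 of 6 lower at that threshold. Ependymal markers summed to 91.98, 100.6 and 103.9 CPM in RC against 43.96, 60.4 and 54.6 CPM in RN, with 4 of 5 lower. With a choroid plexus score as a covariate, 5 of the 38 genes were higher in RN at an unadjusted edgeR p under 0.05, beside 4.87% of tested genes. Rsad2 and Oas1a were no longer among them, and the median log2 fold change of the 38 genes was 0.34. The median level of the choroid plexus markers (centred log2 CPM) was -0.71 to 3.49 in RC and -1.80 to -1.35 in RN. It separated the groups fully, so this fit could hardly tell the score from the group. With a T cell score (the mean centred log2 CPM of the tested markers) as a covariate, 22 of the 38 genes were higher in RN at an unadjusted edgeR p under 0.05, beside 5.6% of tested genes. Irf7 alone was called (log2 fold change 1.43, edgeR adjusted p = 0.0322), beside 0.0334%. The median level of these markers was 0.90 in RC replicate 1 and -0.66 to 0.028 in the other mice. This fit therefore adjusts largely for that mouse, and without it Irf7 was not called. The part of these cell types, of choroid plexus tissue and of the region dissected in the differences above was not tested.

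**Figure D4:**
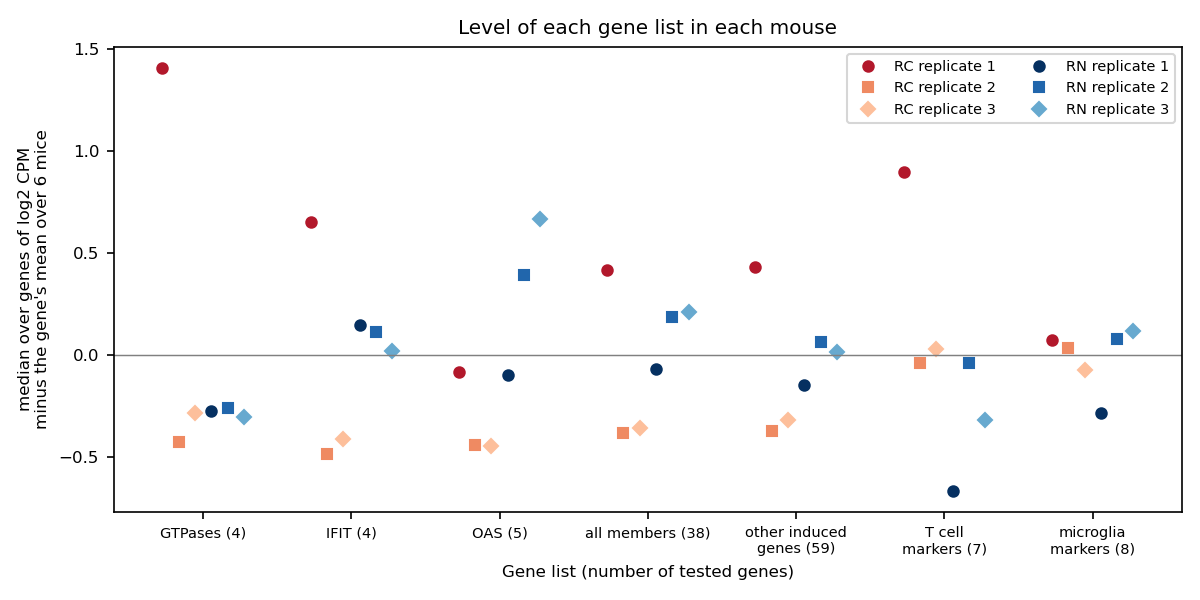
Median over the tested genes of each list of log2 CPM minus the gene's mean over 6 mice, for each mouse, with RC in red tones and RN in blue tones. RC replicate 1 is highest in the GTPases, the IFIT genes, the other induced genes and the T cell markers, while in the OAS family RN replicates 2 and 3 are highest and in the microglial markers the 6 mice lie between -0.28 and 0.12.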

How the data were processed

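Thalamus tissue dissected from beneath the hippocampus (3 mice each of RC and RN) was sequenced for the authors on an Illumina instrument after NEBNext library preparation. The deposited values are raw counts for each gene, 1 column a mouse, with no normalization by the authors. Per the labels, the submitters' processing notes name fastp 0.18.0, FastQC, HISAT2, RSEM 1.2.19 and the build GRCm39, with no role for each. The treatment of reads shared between copies and of strand is not given in the sources used here.

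Counts were filtered with filterByExpr (minimum count 10), normalized by TMM and tested with edgeR 4.0.16 in R 4.3.3, by a quasi-likelihood model of group alone with Benjamini-Hochberg adjustment over 14956 genes. Calls required at least a 2-fold change and an adjusted p under 0.05, the thresholds of the study, which applied them to DESeq2 and not to edgeR. Standard errors are the log2 fold change divided by the root of F, and the scripts were tested on simulated data. Per-mouse medians used log2 CPM with a prior count of 2. Exon lengths came from GENCODE M21 (GRCm38), and promoter windows from RefSeq (GRCm38.p6), an older build than that of the counts, which carry no coordinates. Parp14, Rtp4, Zbp1, Oas2, Usp18, Ifi27, Mx1 and Dhx58 had no window.

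Genes named are all 38 members, up to 3 genes of each pathway list by smallest p (with any called), up to 3 of each marker list by mean level, and Neurod1. Exceptions are named as such. Of 231 symbols listed, 228 matched. The members, lists and tests were chosen with earlier results of these data known. Groups and replicate numbers came from the labels, each mouse is 1 sample, and no 2 libraries agreed within sampling noise (chi-square per degree of freedom at least 16.3). The biological coefficient of variation was 17.4%.

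RC and RN share replicate numbers. Deviations from the group mean correlated weakly across genes in same-numbered mice, at 0.174, 0.120 and 0.210. In differently numbered mice the correlations ran from -0.285 to 0.156, the last for RC replicate 1 and RN replicate 2. Because each group was centred on its own mean, these correlations depend on one another. The pairing rests on the labels' numbers and this check alone. Alternatives were DESeq2 1.42.0, its size factors in edgeR, no filter, the replicate block, edgeR without its legacy option, choroid plexus and T cell scores as covariates, and each mouse left out.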

Additional observations from a re-analysis of the deposited data

How the results depend on the processing

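Called genes among the 38 numbered 0 with DESeq2's size factors, the replicate block, the choroid plexus covariate, edgeR without its legacy option and each mouse left out. DESeq2 called 3 higher (Oasl1, Oas3, Rsad2), no filter 1 (Oasl1) and the T cell covariate 1 (Irf7). The count higher at an unadjusted p under 0.05 was 22 with the T cell covariate, 5 with the choroid plexus covariate and 5 to 20 with 1 mouse left out, and the median log2 fold change was 0.56 and 0.34 with these covariates and 0.0035 to 0.44 with 1 mouse left out. The count lower was 2 with DESeq2, 2 without the filter, 1 with the replicate block and 0 to 3 with 1 mouse left out (3 without RC replicate 2, 3 without RC replicate 3, 1 without RN replicate 2). The replicate block, which takes same-numbered mice as pairs, changed no other call. Some single log2 fold changes took the opposite sign. The choroid plexus covariate gave Ifih1 0.021, Ifit3 0.39, Ifit3b 0.24, Ifitm3 0.10, Xaf1 0.20, Ifi27 0.30 and Ifi35 0.13. The T cell covariate gave Ifih1 0.13, Irf1 0.38, Ifit3 0.54, Ifit3b 0.32, Herc6 0.32, Ifitm3 0.20, Xaf1 0.33, Gbp3 0.073, Gbp7 0.030, Irgm1 0.42, Igtp 0.24 and Ifi35 0.24. For Ifit3, DESeq2 gave 0.0022, its size factors 0.0016 and the replicate block 0.087. With 1 mouse left out the sign changed for Ifih1 (-0.18 to 0.20), Stat2 (-0.12 to 0.28), Irf9 (-0.069 to 0.25), Irf1 (-0.60 to 0.32), Ifit1 (-0.027 to 0.83), Ifit2 (-0.0039 to 0.62), Ifit3 (-0.22 to 0.43), Ifit3b (-0.33 to 0.27), Oasl2 (-0.021 to 0.53), Herc6 (-0.45 to 0.23), Bst2 (-0.038 to 0.29), Ifitm3 (-0.28 to 0.056), Rtp4 (-0.021 to 0.52), Xaf1 (-0.22 to 0.25), Gbp7 (-1.07 to 0.059), Irgm1 (-0.95 to 0.25), Igtp (-1.68 to 0.0016) and Ifi35 (-0.26 to 0.12). With 3 mice a group an exact permutation test cannot go below p = 0.1. The scores were built from the same libraries. Choroid plexus markers separated the groups and T cell markers were highest in RC replicate 1, so neither fit is an independent adjustment. The cause of these moves was not tested.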
